A study of Dicentrarchus labrax with 10 samples.

Results

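Clone library 24 is the set of transcripts on a European sea bass (Dicentrarchus labrax) array whose names begin with cDN24P, that is, cDNA clones of the library numbered 24. The array carried 300 such transcripts, targeted by 891 of its 24200 non-control probes. Beyond the name, the members were chosen by their measured signal: a transcript was kept when a probe of it was well above background in at least 50% of its spots on at least 5 of the 10 arrays, and its brightest such probe by mean over the arrays stood for it. This left 257 of the 300, out of 9929 transcripts kept on the whole array. The names end in a sequencing-read suffix that is not printed here. The tissue the library was made from was not given in the sources used here, and neither the files nor the reference table of sea bass genes pairs these names with genes, so the transcripts are given by clone name only, without function, position or probe sequence. For the same reason the gonad could not be checked against its marker genes.

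Gonads were sampled at 170 days post hatch (dph) from fish labelled as putative females, and each of the 10 gonad samples, called fish here, had its own 1-colour array. The labels number the samples of a group without naming the animals, so that p-values measure the spread between these samples. The 5 HTE2 fish had been brought from 17 °C at 20 dph to 21 °C (early high temperature), and the 5 LTE2 fish from 17 °C to 15 °C (early low temperature), until 60 dph, when the LTE2 tank was raised to 21 °C too. Both groups ate food carrying estradiol from 90 to 154 dph, so that all fish here were estradiol-fed and no fish without estradiol was analysed. Each temperature was held in 1 tank, and the HTE2 arrays lay at place 4 and the LTE2 arrays at place 3 of every slide, so that temperature, tank and place cannot be told apart.

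The sex of a European sea bass depends on many genes and on the temperature of early life, with early warmth known to favour males. Estradiol, the main female sex steroid of fish, is made from androgens by the gonadal enzyme aromatase, and giving it to young fish during the sensitive period turns the gonad towards an ovary. A developing gonad holds germ cells and the somatic cells that support them and make steroids, and the array measured the RNA of all of them together. In such whole-gonad RNA, fewer cells of a type and less RNA per cell cannot be told apart.

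Signals are given as log2 of the processed intensity relative to the 75th percentile of the array, which is therefore 0. That percentile was 632 to 1392 intensity units on the HTE2 arrays and 233 to 683 on the LTE2 arrays, and the HTE2 array was the brighter one on every slide. Of the 257 library 24 probes, 241 to 257 were well above background on each HTE2 array and 211 to 252 on each LTE2 array. HTE2 replicate 3 stood apart from its group, as given below, and LTE2 replicate 1 was the dimmest array. Same-numbered fish of the 2 groups shared a slide. No value of a library 24 transcript was missing on any array.

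Library 24 transcripts spanned a wide range of signal. Their mean over the 10 arrays ran from -6.34 to 6.03, with a median of -2.46 and quartiles of -3.91 and -0.52, beside a median of -1.30 over all 9929 transcripts. Signals of different probes also depend on how well each probe binds, so their order is not an order of RNA amounts. These levels entered the choice of members and are a description. Well above background on all 10 arrays were 204 of the 257 probes, while 53 were so on 5 to 9 arrays. Of the 43 transcripts left out, 3 had no array with a probe well above background. Just inside the filter, 8 transcripts detected on 5 arrays had mean signals of -6.34 to -5.59, and just outside it, 5 detected on 4 arrays had -6.33 to -5.64.

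The transcript with the highest signal, cDN24P0004N24, read 5.81, 5.85, 5.86, 3.50 and 5.47 in HTE2 replicates 1 to 5, against 6.84, 6.79, 6.63, 6.73 and 6.85 in LTE2. Every HTE2 fish lay below every LTE2 fish, and HTE2 replicate 4 lay far below the rest. Its mean was 5.30 ± 1.02 in HTE2 and 6.77 ± 0.09 in LTE2 (SD, n = 5 each), 2.78-fold lower in HTE2 (log2 difference -1.47, SE 0.41, limma adjusted p = 0.0278). The 3 probes of cDN24P0004N24 gave -1.48, -1.47 and -1.44. Without HTE2 replicate 4 its difference was -1.02 and still passed, while without HTE2 replicate 5 or LTE2 replicate 2, 4 or 5 the adjusted p lay at 0.0501 to 0.0607. The call for cDN24P0004N24 was lost under quantile normalization (-0.91, limma adjusted p = 0.137) and in the authors' deposited value table (-0.95, limma adjusted p = 0.131). It was also lost on scaling to added spike-in RNA (-0.44, limma adjusted p = 0.722). With array brightness as a covariate it was lost too (-0.98, limma adjusted p = 0.301).

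The next in signal, cDN24P0003N14, showed no difference that passed. Its values were 4.13, 4.32, 4.86, 2.77 and 4.10 in HTE2, against 4.27, 4.39, 4.52, 4.50 and 4.67 in LTE2. The groups overlapped, with HTE2 replicate 4 again the lowest fish, and the difference was -0.44 with a 95% interval of -1.16 to 0.29 (limma adjusted p = 0.325). Without HTE2 replicate 4 the difference of cDN24P0003N14 was -0.12. The transcript cDN24P0006N08 read 4.28, 4.12, 3.98, 4.85 and 4.43 in HTE2, against 3.55, 3.22, 3.74, 3.52 and 3.54 in LTE2. Here all HTE2 fish lay above all LTE2 fish, by a mean of 0.82 (SE 0.21, limma adjusted p = 0.0204). With the slide as a block the limma adjusted p of cDN24P0006N08 was 0.0506, and without LTE2 replicate 4 it was 0.0503. Its difference was 0.72, 0.90, 0.23, 1.33 and 0.89 on slides 1 to 5. With array brightness as a covariate the call for cDN24P0006N08 was lost (0.75, limma adjusted p = 0.165).

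The fifth in signal, cDN24P0003H11, missed the threshold with a large mean difference. Its values were 4.20, 4.20, 3.48, 0.33 and 1.86 in HTE2, against 4.42, 5.51, 4.72, 4.93 and 4.20 in LTE2, so that HTE2 replicates 4 and 5 lay far below all other fish. The difference was -1.94 with a 95% interval of -3.42 to -0.46 (limma adjusted p = 0.0552), and without HTE2 replicate 3 it was -2.11 (limma adjusted p = 0.0448). Leaving out any other single fish gave a limma adjusted p of 0.0514 to 0.112. It also passed over transcripts detected on all 10 arrays (limma adjusted p = 0.0445) and with a variance trend (0.0458). No other change of processing brought a call. The difference of cDN24P0003H11 was -1.32 without HTE2 replicate 4 and -1.70 without HTE2 replicate 5. At the other end of the range, cDN24P0002G17 averaged -6.14 ± 0.15 in HTE2 and -6.55 ± 1.01 in LTE2, and cDN24P0002P15 averaged -6.34 ± 0.75 in HTE2 and -6.13 ± 0.49 in LTE2 (SD, n = 5 each). The first, cDN24P0002G17, was well above background on 4 HTE2 arrays and 1 LTE2 array, and cDN24P0002P15 on 4 HTE2 and 2 LTE2 arrays. Neither difference passed (limma adjusted p = 0.457 for cDN24P0002G17 and 0.673 for cDN24P0002P15).

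HTE2 and LTE2 gonads differed at 25.3% of all transcripts, by limma with Benjamini-Hochberg adjustment at 0.05 over the 9929 transcripts. In library 24, 83 of 257 differed, 62 higher and 21 lower in HTE2. These 62 make 24.1% of library 24, beside 10.7% of all transcripts called higher, and the 21 make 8.17%, beside 14.5% called lower. Called rises had a median size of 3.05-fold (log2 0.60 to 2.79), and called falls one of 2.03-fold (log2 -1.97 to -0.54). Among the called members, 57 passed 2-fold as rises and 11 as falls, and 18 passed 4-fold, all of them rises. Over all 9929 transcripts, 744 called rises and 925 called falls passed 2-fold, and 163 called rises and 89 called falls passed 4-fold. Over all 257 members, 142 differences were above 0 and 115 below. Their median was 0.14, with quartiles of -0.47 and 1.01, beside a median of -0.27 over all transcripts. No test of library 24 against the other transcripts was made. The brightness of the arrays moved with the group as given above, and with it as a covariate 2 members were called higher and none lower by limma, against 10 higher and 51 lower over all transcripts. At an unadjusted p under 0.05 that fit gave 69 members higher and 11 lower. The share of all transcripts at that unadjusted threshold was not counted, so these 2 counts have nothing to be read against.

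**Figure D1:**
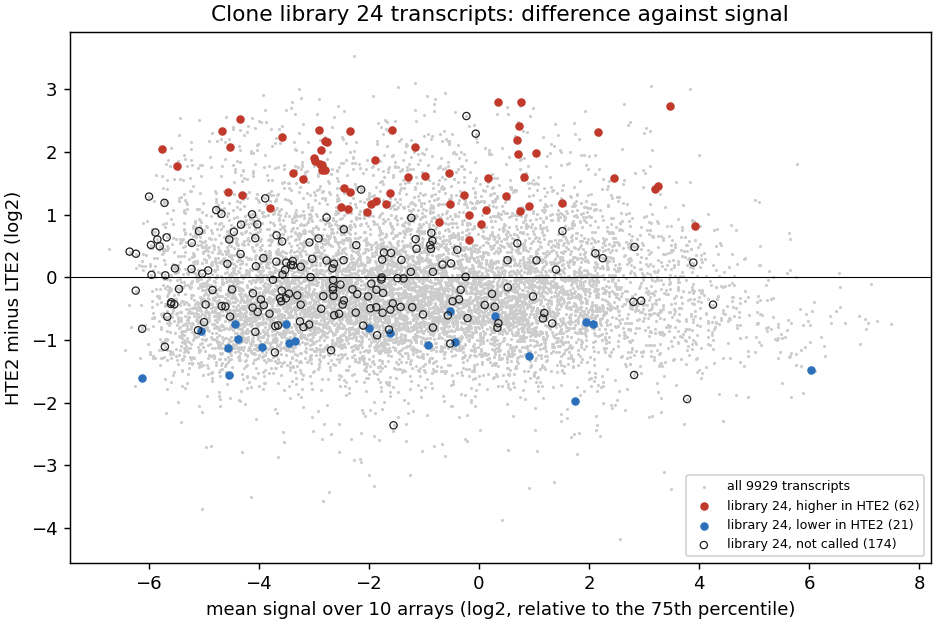
HTE2 minus LTE2 (log2) against mean signal over the 10 arrays (log2 relative to the 75th percentile), 1 point per transcript, grey for all 9929 and coloured or open for the 257 of library 24. The 62 members called higher lie at signals of -5.76 to 3.92 and reach a difference of 2.79, and the 21 called lower reach -1.97.

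The direction of the typical difference depended on the scale. The 75th percentile sets the median of all transcripts at -0.27, and the median of library 24 lay 0.42 above it. Scaling to added spike-in RNA moved the median of all transcripts to 0.76 and that of library 24 to 1.18. Such scaling shifts all values of an array by the same amount, so the distance of 0.42 was bound to stay. On that scale 74 members were called higher and none lower by limma, and 1 lower at an unadjusted p under 0.05. Over all transcripts, 12.5% were higher and 0.171% lower on that scale. There the limma fit gave every named member the same SE, 0.672. The calls on the spike-in scale thus followed the size of the difference and not each transcript's own spread among fish, unlike those on the 75th percentile scale. Normexp background correction brought the medians together, at -0.48 for library 24 and -0.51 for all transcripts, with 26 members called higher and 25 lower. In the authors' deposited value table, put through the same limma fit, the distance between the medians was 0.17, with 61 members higher and 15 lower. Under normexp 10.1% of library 24 was called higher beside 5.6% of all transcripts, and in the authors' deposited values 23.7% beside 11.6%. Called lower were 9.73% of library 24 beside 16.2% of all transcripts under normexp, and 5.84% beside 12.9% in the authors' deposited values.

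The calls were spread unevenly over the range of signal. In the lowest quartile of signal over all transcripts, 11 of 97 members were higher and 10 lower (11.3% and 10.3%, beside 7.53% and 11.6% of all transcripts in it). In the second quartile 22 of 74 were higher and 2 lower (29.7% and 2.70%, beside 9.91% and 14.4%). In the third 14 of 49 were higher and 4 lower (28.6% and 8.16%, beside 12.5% and 14.5%). In the highest quartile 15 of 37 were higher (40.5%, beside 13.0% of all transcripts in it) and 5 lower (13.5%, beside 17.8%). Some members passed the detection filter mainly through 1 group. Fewer than 3 LTE2 arrays detected 27 of the 257 probes, beside 480 of the 9929 over all transcripts. Fewer than 3 HTE2 arrays detected 1, beside 60 over all transcripts. Well above background on no LTE2 array were 4 members, beside 23 over all transcripts. Of these 4, all well above background on every HTE2 array, 2 were called higher, at 3.40-fold and 4.0-fold. For these sizes, an LTE2 reading below the lowest signal detected on its array was raised to that signal. Without that raising, the kept probes of cDN24P0006G10, the 3.40-fold one, gave log2 differences of 0.68 to 1.78. Those of cDN24P0002O23, the 4.0-fold one, gave 1.02 to 2.05. No LTE2 value of the 4 probes was well above background either, so the sizes are uncertain. Since such probes could enter only through HTE2, the counts were also taken over transcripts with a probe detected on all 10 arrays. There, 55 of 206 members were higher and 22 lower, beside 11.7% and 18.4% of 8454 transcripts.

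The largest rise that held on at least 4 of 5 slides was that of cDN24P0006E02. Its values were 2.93, 2.97, -0.31, 3.16 and 2.08 in HTE2 replicates 1 to 5, against -0.17, -0.72, 0.44, -1.24 and -1.45 in LTE2. All HTE2 fish but replicate 3 lay far above every LTE2 fish, and replicate 3 lay inside the LTE2 range. The mean was 2.17 ± 1.44 in HTE2 and -0.63 ± 0.78 in LTE2 (SD, n = 5 each), 6.93-fold higher in HTE2 (log2 difference 2.79, SE 0.63, limma adjusted p = 0.0149). On slides 1 to 5 the difference of cDN24P0006E02 was 3.10, 3.69, -0.75, 4.39 and 3.53, and its other probes gave 2.78 and 2.83. Leaving out single fish, its difference lay between 2.55 and 3.41 and its adjusted p under 0.05 each time. With array brightness as a covariate the difference of cDN24P0006E02 was 2.77 and the adjusted p 0.12.

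The second largest rise, that of cDN24P0003N16, had the same shape. HTE2 fish read 2.34, 2.60, -0.08, 2.40 and 1.46, against -0.34, -1.44, 0.15, -1.71 and -1.89 in LTE2 fish. Again HTE2 replicate 3 was the only HTE2 fish inside the LTE2 range, and LTE2 replicates 1 and 3 were the highest of their group. The mean was 1.74 ± 1.11 in HTE2 and -1.04 ± 0.90 in LTE2 (SD, n = 5 each), 6.91-fold higher in HTE2 (log2 difference 2.79, SE 0.56, limma adjusted p = 0.012). Its slide differences were 2.68, 4.04, -0.22, 4.10 and 3.35, and the other probes of cDN24P0003N16 gave 2.80 and 2.80. Brightness as a covariate left 2.96 with an adjusted p of 0.0925 for cDN24P0003N16.

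The largest fall on the same basis was that of cDN24P0003A19. HTE2 fish read 1.66, 1.59, 2.13, -1.66 and 0.09, against 2.67, 3.02, 2.44, 3.12 and 2.39 in LTE2 fish. The groups did not overlap, and HTE2 replicates 4 and 5 were the lowest of all. The mean was 0.76 ± 1.55 in HTE2 and 2.73 ± 0.33 in LTE2 (SD, n = 5 each), 3.91-fold lower in HTE2 (log2 difference -1.97, SE 0.61, limma adjusted p = 0.0395). The remaining probes read -2.0 and -1.92, and the slide differences of cDN24P0003A19 were -1.01, -1.44, -0.31, -4.78 and -2.30. The call for cDN24P0003A19 depended on the scale and the fit. It was lost on scaling to added spike-in RNA (-0.93, limma adjusted p = 0.391). Array brightness as a covariate ended it too (-1.55, limma adjusted p = 0.303). With the slide as a block the limma adjusted p was 0.0577, and it lay at 0.0513 to 0.0832 without HTE2 replicate 1, 2 or 5 or without any 1 LTE2 fish. Without HTE2 replicate 4 the difference of cDN24P0003A19 was -1.36 and passed (limma adjusted p = 0.0375), and without HTE2 replicate 3 it was -2.31 (0.0145).

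The next fall was at the bottom of the signal range. The transcript cDN24P0005B01 read -7.05, -7.01, -5.77, -7.75 and -7.03 in HTE2, against -4.98, -5.53, -5.09, -5.46 and -5.52 in LTE2. The groups did not overlap, and the probe was well above background on 1 HTE2 array and on 4 LTE2 arrays. The mean was -6.92 ± 0.72 in HTE2 and -5.31 ± 0.26 in LTE2 (SD, n = 5 each), a log2 difference of -1.61 (SE 0.32, limma adjusted p = 0.0121). As 4 of the 5 HTE2 values were not well above background, the size of this fall is uncertain. Only 1 probe of cDN24P0005B01 passed the filter, and its difference was -0.16 in the authors' deposited value table (limma adjusted p = 0.16). The call for cDN24P0005B01 was also lost on scaling to added spike-in RNA (-0.57, limma adjusted p = 0.631). Array brightness as a covariate left -1.19 without a call (limma adjusted p = 0.134).

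**Figure D2:**
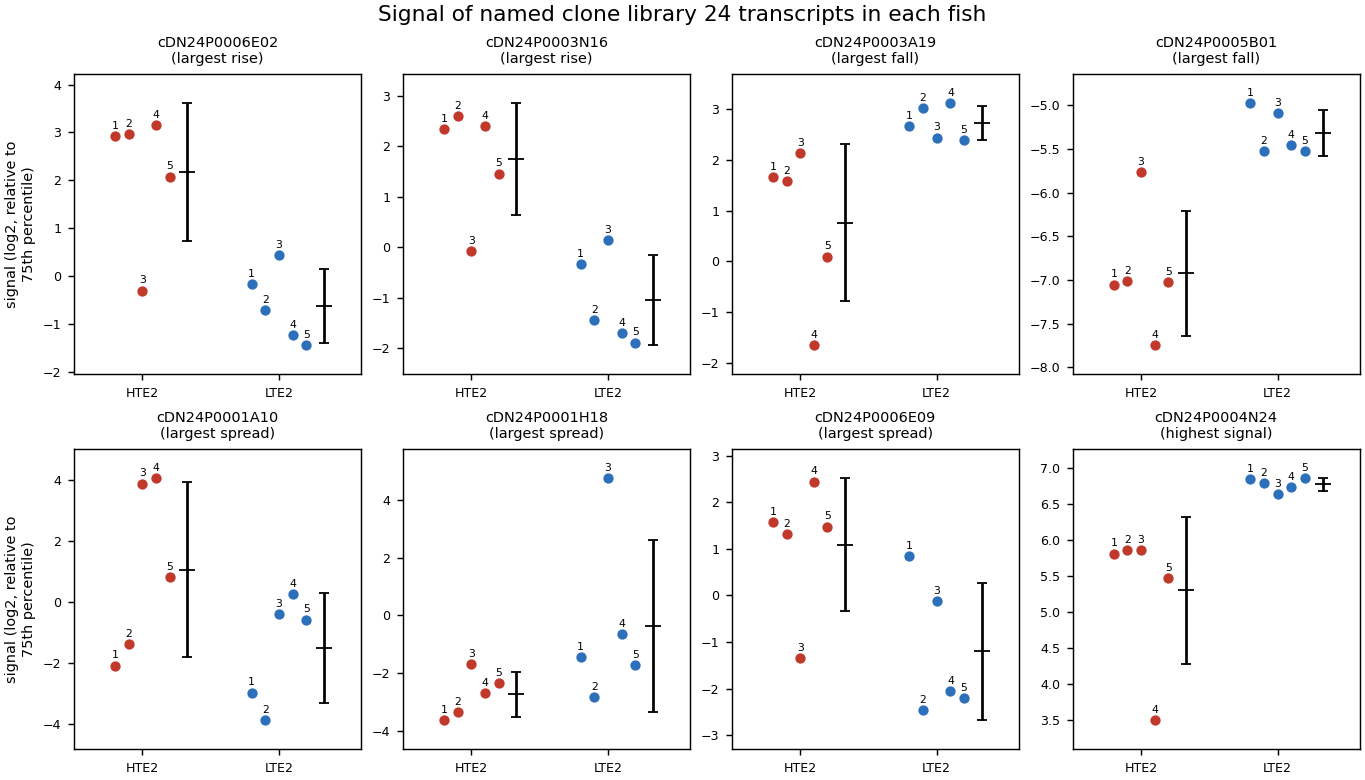
Signal (log2 relative to the 75th percentile of the array) of 8 library 24 transcripts in each fish, HTE2 in red left of LTE2 in blue, with replicate numbers over the points and the mean ± SD of 5 fish in black; each panel has its own axis. HTE2 replicate 3 lies among the LTE2 fish for both rises, and HTE2 replicate 4 is the lowest fish for cDN24P0003A19, cDN24P0005B01 and cDN24P0004N24.

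The called members shared an order of fish beyond the 4 described. Among the 62 called higher, HTE2 replicate 3 was the lowest HTE2 fish in 56 and lay at or below the highest LTE2 fish in 40, while each other HTE2 fish did so in 0 to 2. HTE2 replicate 4 was the highest HTE2 fish in 51 of the 62. On the LTE2 side, replicate 1 was the highest in 32 and replicate 3 in 28. All 62 were higher in HTE2 on slides 1, 2, 4 and 5, and 32 of the 62 on slide 3. As these transcripts were called from the same arrays, their agreement on the slides is a description. Their median signal was -0.78, -0.77, -1.75, -0.03 and -0.91 in HTE2 replicates 1 to 5, against -1.74, -2.90, -1.93, -2.73 and -2.59 in LTE2. Among the 21 called lower, HTE2 replicate 3 was the highest HTE2 fish in 13 and replicate 4 the lowest in 13. On each slide, 19 to 21 were lower in HTE2. The order of fish was not counted over all called transcripts.

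**Figure D3:**
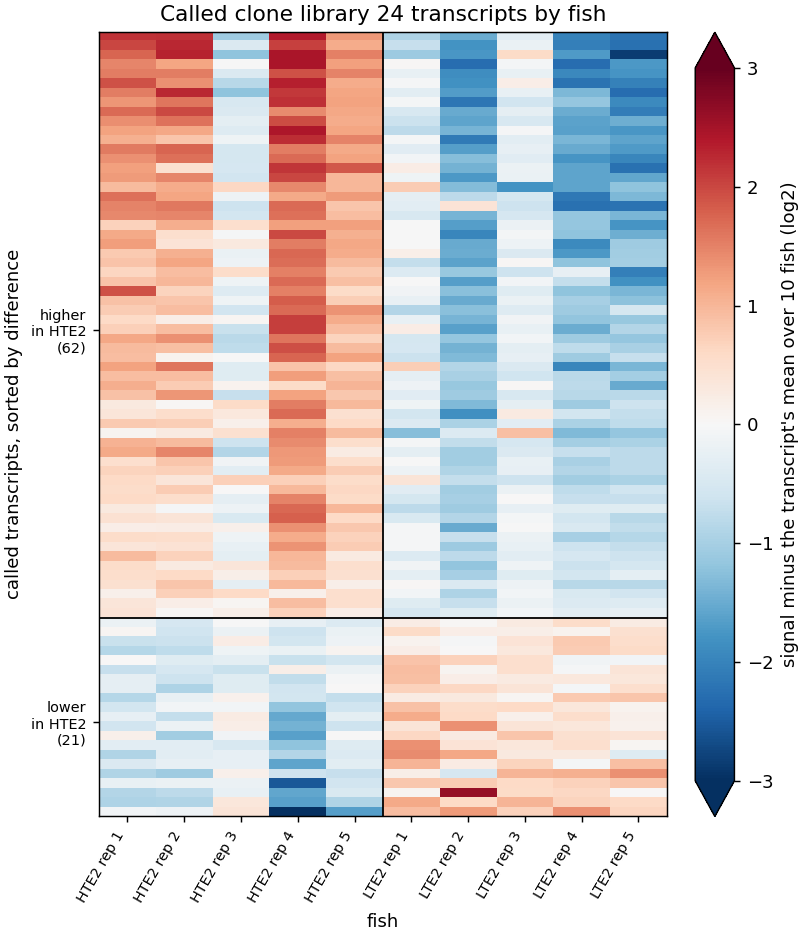
Signal minus the transcript's mean over 10 fish (log2, colour) for the 83 called transcripts of library 24 (rows, 62 higher above 21 lower) in each fish (columns, HTE2 left of LTE2). HTE2 replicate 3 is pale in most upper rows, like LTE2 replicates 1 and 3, and HTE2 replicate 4 is the deepest in colour.

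Over all 257 members, called or not, slide 3 also went its own way. Members were higher in HTE2 in 127, 149, 100, 155 and 163 cases on slides 1 to 5. The median member difference was -0.04, 0.19, -0.17, 0.33 and 0.32 on these slides, beside -0.27, -0.28, -0.03, -0.55 and -0.14 for all transcripts. Library 24 thus lay above the median of all transcripts on slides 1, 2, 4 and 5 and below it on slide 3. The first principal component of the 257 members took 61.7% of their variance between fish, beside 50.6% over all transcripts. Its scores were 8.74, 9.06, -2.50, 17.7 and 8.84 in HTE2 replicates 1 to 5, against -3.66, -12.4, -2.96, -11.2 and -11.7 in LTE2. HTE2 replicate 3 lay close to LTE2 replicates 1 and 3, without overlap between the groups. Over all transcripts the scores did not overlap either, with HTE2 replicate 3 at -13.0, LTE2 replicate 3 at -17.2 and LTE2 replicate 1 at -40.4. HTE2 replicate 4 was the highest there too, at 108. The order of fish is therefore not shown to be particular to library 24.

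**Figure D4:**
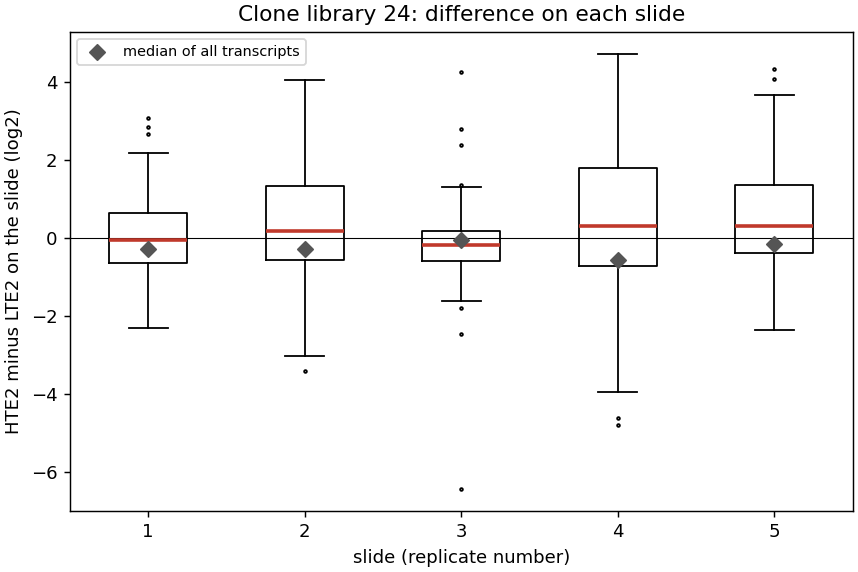
HTE2 minus LTE2 (log2) of the 257 library 24 transcripts on each of the 5 slides, as boxes with the median in red, quartiles and whiskers to 1.5 times the interquartile range, with points beyond. Grey diamonds give the median of all transcripts, which lies below the library 24 median on every slide but slide 3.

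The groups were also compared with no model, by counting transcripts without overlap. In 21 members all 5 HTE2 fish lay above all 5 LTE2 fish, where 4.1% of all transcripts did so, and in 13 they lay below, where 9.23% did so. Entering the slide as a block gave 42 members higher and 13 lower, beside 5.8% and 9.14% of all transcripts. Leaving out 1 fish at a time gave 38 to 75 members higher and 6 to 37 lower, while the share of all transcripts called moved too, between 4.83% and 15.5% higher and between 6.23% and 25.8% lower. The count higher was lowest without LTE2 replicate 4 (38) or LTE2 replicate 5 (39), and highest without HTE2 replicate 3 (75). The count lower was 37 without HTE2 replicate 3, 6 without HTE2 replicate 2 or LTE2 replicate 5, 7 without HTE2 replicate 1 or 5 or LTE2 replicate 4, 10 without HTE2 replicate 4 or LTE2 replicate 1 or 3, and 12 without LTE2 replicate 2. Without both arrays of slide 3, 75 were higher and 29 lower (29.2% and 11.3%, beside 14.8% and 22.4% of all transcripts).

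The probes of a transcript mostly gave the same answer. Of 231 members with 2 or more probes kept, 203 (87.9%) had all probes on 1 side of 0, and the median SD between probes was 0.08 log2 units. All 80 called members with 2 or more probes had their probes on 1 side, and in 67 every probe passed when the fit ran over all 20115 probes. In 14 members the probes spanned over 1 log2 unit. One of them was cDN24P0002L14, ranked 4 in signal, whose brightest probe read 4.09, 4.25, 3.79, 3.97 and 3.97 in HTE2, against 3.86, 3.74, 3.82, 3.80 and 3.68 in LTE2. That probe of cDN24P0002L14 differed by 0.24 (95% interval -0.12 to 0.60, limma adjusted p = 0.286), while the other probes gave 1.76 and 1.74 (limma adjusted p = 0.013 and 0.0137 over all probes). The mean of its probes differed by 1.25 (limma adjusted p = 0.0146). Whether the 3 probes of cDN24P0002L14 read the same RNA was not tested.

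Fish of the same group differed from each other by a median SD of 0.55 log2 units over the 257 members, with quartiles of 0.37 and 0.73, beside 0.47 over all transcripts. This spread depended on the scaling, with a median SD of 0.233 in the authors' deposited value table and 1.06 under spike-in scaling. On the 75th percentile scale the median SD was 0.54 among HTE2 fish and 0.45 among LTE2 fish. It was larger in HTE2 for 159 members (61.9%), beside 68.8% of all transcripts. As each fish had its own array, these spreads also hold differences between arrays. By their brightest probes, the steadiest members were cDN24P0002L14, with a pooled SD of 0.13, and cDN24P0005M10, with 0.14. In the fit over all probes, the difference at that probe of cDN24P0002L14 had an SE of 0.16. The other probes of cDN24P0002L14 had SEs of 0.37 and 0.38, so the steadiness holds for its brightest probe only. For cDN24P0005M10, signals were -3.74 to -3.60 in HTE2 fish and -3.69 to -3.24 in LTE2 fish, and its difference was -0.21 (95% interval -0.58 to 0.15, limma adjusted p = 0.338). The other probes of cDN24P0005M10 gave larger differences, -0.58 and -0.45 (limma adjusted p = 0.0586 and 0.118 over all probes).

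**Figure D5:**
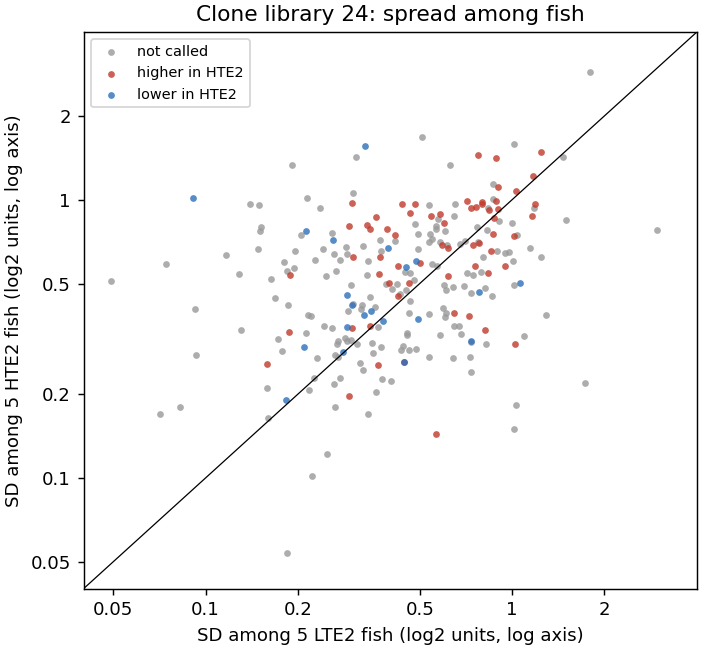
SD among 5 HTE2 fish (vertical, log axis) against SD among 5 LTE2 fish (horizontal, log axis), both in log2 units, for the 257 library 24 transcripts coloured by call. Points above the line, 159 of 257, varied more among HTE2 fish.

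The 3 most variable members did not pass the test between groups, 1 of them by a narrow margin. The transcript cDN24P0001A10, with a pooled SD of 2.39, read -2.09, -1.37, 3.88, 4.07 and 0.82 in HTE2, against -2.97, -3.87, -0.39, 0.25 and -0.58 in LTE2. HTE2 replicates 3 and 4 were the highest fish and LTE2 replicates 1 and 2 the lowest. On each slide the HTE2 fish was the higher, by 0.88, 2.49, 4.27, 3.82 and 1.40. The mean difference of cDN24P0001A10 was 2.57 with a 95% interval of -0.23 to 5.37 (limma adjusted p = 0.144), and with the slide as a block its adjusted p was 0.0375. The 3 probes of cDN24P0001A10 gave 2.57, 2.60 and 2.64.

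The transcript cDN24P0001H18 varied through 1 fish. Its values were -3.61, -3.35, -1.67, -2.68 and -2.34 in HTE2, against -1.43, -2.82, 4.76, -0.64 and -1.72 in LTE2. LTE2 replicate 3 stood far above all other fish, and the remaining fish of the groups overlapped. The difference was -2.36 with a 95% interval of -4.90 to 0.18 (limma adjusted p = 0.141). Without LTE2 replicate 3 alone the difference of cDN24P0001H18 was -1.08 (limma adjusted p = 0.124), and without both slide 3 arrays it was -1.34 (limma adjusted p = 0.0484). The third, cDN24P0006E09, read 1.57, 1.31, -1.34, 2.44 and 1.48 in HTE2, against 0.84, -2.46, -0.12, -2.06 and -2.21 in LTE2. It followed the fish order of the called rises, with HTE2 replicate 3 low and LTE2 replicates 1 and 3 high, and its difference was 2.29 (95% interval 0.57 to 4.01, limma adjusted p = 0.0518). Without HTE2 replicate 3 the difference of cDN24P0006E09 was 2.90 (limma adjusted p = 0.00819), and without LTE2 replicate 1 it was 2.80 (limma adjusted p = 0.0292). Leaving out any other single fish gave a limma adjusted p of 0.0515 to 0.111, so that it did not pass. The transcript cDN24P0006E09 also passed with the slide as a random block, in the authors' deposited value table, with normexp, quantile or median centring, over transcripts detected on all 10 arrays, over all probes, with outlier spots kept and with a variance trend, at limma adjusted p-values of 0.0416 to 0.0499. Without both slide 3 arrays the difference of cDN24P0006E09 was 3.17 and passed (limma adjusted p = 0.00835). It passed too on the spike-in scale, where named members shared 1 SE (3.33, limma adjusted p = 7.94e-05). It did not pass with the slide as a fixed block (limma adjusted p = 0.0785), nor in the authors' values with that block (0.0933). Other settings without a call were no filter (0.0548), the mean of probes (0.0551) and brightness as a covariate (0.127).

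Of the 174 members that were not called, 74 had a 95% interval of the difference that lay within 2-fold in either direction. For the other 100, differences larger than 2-fold were within the interval, so that the data do not show them to be alike in the groups. The intervals hold for the brightest probe and the main scale only, so the 74 are not shown to be alike beyond these. Among the 74 was cDN24P0002L14, whose other probes gave differences of 1.76 and 1.74. How many of the 74 had such probes was not counted. Spike-in scaling moved the median difference of all members from 0.14 to 1.18, and the intervals were not counted on that scale.

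The clone libraries with neighbouring numbers were set beside library 24. In library 23, 91 of 334 transcripts were higher and 24 lower in HTE2 (27.2% and 7.19%), and in library 22, 55 of 300 were higher and 24 lower (18.3% and 8.0%). The median difference was 0.44 in library 23 and -0.02 in library 22, against 0.14 in library 24. In the other 11 clone libraries, numbered 25 to 35, 4.17% to 9.15% of transcripts were higher and 12.2% to 19.7% lower. These differences between libraries were not tested.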

How the data were processed

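The deposited scanner files hold intensity values that Agilent Feature Extraction 10.7.3.1 made per array, background-subtracted and detrended in space, per the file headers, and not normalized between arrays, from the values. The spot flags in the same deposited files, other values of 0 or 1, marked outlier spots and spots well above background. Per the labels' protocols, 100 ng of total RNA (integrity number above 7) per array was amplified and labelled with Cy3. The authors' deposited value table holds log2 values made by a normalization not given in the sources used here.

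Outlier spots (1057 over all arrays) and 1417 control spots per array were left out, log2 processed intensity minus the array's 75th percentile was averaged per probe, and 20115 probes passed the filter. One probe per transcript entered a limma 3.58.1 model (lmFit, eBayes; R 4.3.3) with only the group as a term, whose two-sided p-values were adjusted by Benjamini-Hochberg over 9929 transcripts and called under 0.05. The fit was tested on simulated data. Named members were those highest (5) and lowest (2) in signal, most (3) and least (2) variable, and the 2 largest rises and 2 largest falls called with 1 sign on at least 4 slides. The members and lists were chosen with earlier results of these data known. Normexp used median intensities with an offset of 50. Same-numbered arrays shared a slide. The number of arrays limits the precision. Alternatives are given in the closing section. Figures were drawn with matplotlib 3.10.9.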

Additional observations from a re-analysis of the deposited data

Results flagged for a closer look

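A screen of 36 sets of 5 replicate values for a value lying apart picked 3, and chance alone picks about 1 set in 20. That rate does not hold for sets of members named for their large spread, such as cDN24P0001H18. HTE2 replicate 4 read 3.50 for cDN24P0004N24, far below the next HTE2 fish at 5.47. LTE2 replicate 3 read 4.76 for cDN24P0001H18, far above the next LTE2 fish at -0.64. The log2 75th percentile of LTE2 replicate 1 was 7.86, below the next LTE2 array at 9.0.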

How the results depend on the processing

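The slide as a replicate block gave 42 members higher and 13 lower, and 51 of these 55 were among the 83 called without it; it ended the calls of cDN24P0003A19 and cDN24P0006N08, brought one for cDN24P0001A10 and changed no other call of a named member. Deviations of same-numbered samples from their group means correlated across transcripts at 0.39, 0.29, -0.27, 0.04 and 0.15 for replicates 1 to 5. The same-numbered LTE2 sample was the best partner of the HTE2 sample in 3 of 5, so that a pairing beyond the shared slide was not shown. Normexp gave 26 higher and a median difference of -0.48. Spike-in scaling, over 7 of 10 spike-in probes, gave 0 lower (1 at an unadjusted p under 0.05, limma), a median difference of 1.18 and a median SD of 1.06. The authors' value table gave a median SD of 0.233. With the block, an alternative chosen after seeing the data, that table gave 29 higher, 6 lower and a median SD of 0.236. Those counts were 11.3% and 2.33% of the members, beside 5.82% higher and 7.02% lower over all transcripts. Brightness as a covariate left 2 higher and 0 lower by limma, with 69 and 11 at an unadjusted p under 0.05. The unadjusted counts were not taken over all transcripts. Leaving out single fish gave 38 to 75 higher and 6 to 37 lower, median differences of 0.09 to 0.22 and median SDs of 0.47 to 0.56. The random block, quantile or median centring, other filters, the mean of probes, the fit over all probes, kept outlier spots and a variance trend left the counts higher and lower within 1.5 times. Signs turned for cDN24P0002G17 under normexp (-0.93), for cDN24P0002P15 under quantile (0.19), under spike-in scaling (0.82), without slide 3 (0.10) and without HTE2 replicate 5 (0.016, in a range of -0.42 to 0.016 over single fish left out), and under spike-in scaling for cDN24P0003N14 (0.60) and cDN24P0005M10 (0.82), none of them called under any of these. Over all alternatives, single results for named members lost a call in 30 cases and gained one in 21, among them 13 for cDN24P0006E09. The causes were not tested. No value of cDN24P0005B01 exists under the filter on all 10 arrays. Dim probes limit the smallest signals.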

Other observations

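Of the 37 members in the highest quartile of signal, 4, chosen after their values were seen, had their lowest value in HTE2 replicate 4, the next lowest in HTE2 replicate 5 and a mean difference past 2-fold. They were cDN24P0004N24, cDN24P0003A19, cDN24P0003H11 and cDN24P0005N09. The last, cDN24P0005N09, averaged 2.04 ± 1.42 in HTE2 and 3.60 ± 0.31 in LTE2 (SD, n = 5 each), without overlap, a difference of -1.56 that did not pass (limma adjusted p = 0.0623). In all, 15 of the 257 members had this order of the 2 fish. The share of all transcripts with this order was not counted. HTE2 replicate 4 held the lowest value in 22.6% of the members, beside 41.1% of all transcripts. The order is therefore not shown to be particular to these members.

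HTE2 replicate 4 held the highest of the 10 values in 90 members (35.0%, beside 19.6% of all transcripts) and the lowest in 58 (22.6%, beside 41.1%). LTE2 replicates 2 and 5 held the lowest value in 58 and 43 members (22.6% and 16.7%, beside 14.9% and 8.23% of all transcripts).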
